A study of Mus musculus with 11 samples.

Results

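Cells labelled as cardiac progenitors null for beta-sarcoglycan were compared with cells labelled as wild-type cardiac progenitors, across all genes of a mouse expression array. The comparison used 8 of the 11 arrays of the series, 5 labelled KO (beta-sarcoglycan null) and 3 labelled WT (wild type), chosen by the genotype label alone. The KO arrays came from atrium, ventricle and aorta, with ventricle and aorta each hybridised on 2 arrays. The WT arrays came from atrium, ventricle and aorta, with 1 array each. Both arrays of KO ventricle differed by 0.647 of the noise between repeated spots and both arrays of KO aorta by 0.747 of it, while every other pair of arrays within a group differed by 2.62 times that noise or more, apart from 1 pair of C2C12 arrays at 0.64. Each near-identical pair was averaged and counted as 1 sample, which left 3 KO-labelled and 3 WT-labelled samples, 1 from each region. C2C12, a mouse myoblast line, was on 3 arrays and is used here only to tie slides together and as a reference level.

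The series' design text calls the cells mesoangioblasts, progenitors associated with small vessels, and names atrium, ventricle and aorta biopsies as their source. Per the sample descriptions, the wild-type cells can become beating cardiomyocytes in culture, whereas the null cells form skeletal muscle fibres. The labels give no age of the mice, passage of the cells, number of mice or state of the cultures at harvest, so p-values reflect only how these samples vary, and the samples are regions of the heart as much as replicates. No slide held both genotypes: the WT arrays shared slide 2, and the KO arrays lay on slides 1 and 3. Genotype and slide can therefore be separated only through C2C12, which was on all 3 slides. A fit with 1 term for slide 2 against slides 1 and 3 is called slide-blocked below. The C2C12 arrays of slides 1 and 3 were averaged as 1 sample, and the array on slide 2 was another. That array differed from them by 3.34 and 3.24 times the noise between repeated spots. Slide and C2C12 sample therefore cannot be told apart in the slide-blocked fit.

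Beta-sarcoglycan is 1 of the transmembrane subunits of the sarcoglycan complex, which sits with dystrophin and dystroglycan in the muscle cell membrane. Loss of the complex leaves muscle fibres fragile and causes limb-girdle muscular dystrophy with cardiomyopathy. Mesoangioblasts themselves express several myogenic, pericyte and stromal genes, and their fate depends on the tissue from which they are taken.

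Levels are log2 of the processed signal relative to each array's 75th percentile, which is set to 0. Triplets of values follow the order atrium, ventricle, aorta. Differences are KO minus WT on the log2 scale with the standard error of the fit, for 3 against 3 samples, and a gene was called at an adjusted p under 0.05 from limma over 14999 tested genes. If every array of 1 group was too dim to stand well above background, only the smallest fold the data allow is given, as "at least". A gene named below as higher or lower passed the test in every alternative setting run, including the slide-blocked fit and the omission of each sample, unless its sentence says otherwise. Genes were kept if well above background on 3 or more arrays, so a gene present in 1 group alone could pass. Such a gene had to differ, and the counts of called genes in a list describe that list without being a test of it. Each array carried 45018 spots, none saturated, with 49.0 to 62.0% of probes well above background. The number of arrays limits the precision.

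Beta-sarcoglycan itself was not called lower in the KO-labelled samples. Its probe (Sgcb) read 2.64, 2.99 and 2.34 in the KO-labelled samples and 2.07, 2.20 and 1.82 in the WT-labelled ones. All 3 KO-labelled values lay above all 3 WT-labelled values, and the difference of 0.63 ± 0.21 did not pass (adjusted p = 0.071, slide-blocked adjusted p = 0.237). Whether this probe lies inside the deleted part of the gene is not given in the labels. The groups are therefore called KO-labelled and WT-labelled, and short forms such as KO atrium or WT array also stand for the label alone. Within 10 Mb of the Sgcb probe 77 genes were tested, of which 8 were higher and 13 lower. The share called, 27.3%, was near the 29.8% of all genes.

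Of the 14999 genes, 2062 (13.7%) were higher and 2402 (16.0%) lower in the KO-labelled samples, or 29.8% in all. Each of the 4464 called genes had its 3 KO-labelled values on 1 side of its 3 WT-labelled values. Such separation was also seen over all tested genes in 49.2% of cases, 22.1% upwards and 27.2% downwards. The called differences were large: 612 genes were at least 8-fold higher and 369 at least 8-fold lower, and 278 and 135 were at least 32-fold apart. The median difference over all tested genes was -0.06. In the slide-blocked fit 527 genes were higher (3.51%) and 387 lower (2.58%), or 6.09% in all, and 525 and 383 of these were among the genes called without it. In that fit 2053 of the 2062 higher genes and 2354 of the 2402 lower genes kept their direction, and none was called in the opposite one.

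WT atrium stood apart from the other WT-labelled samples. It differed at least 2-fold from WT ventricle at 2577 genes and from WT aorta at 2472, whereas WT ventricle and WT aorta were that far apart at 670. The KO-labelled regions differed from each other at 767 to 1143 genes. Between KO-labelled and WT-labelled samples of the same region, 4167 genes were at least 2-fold apart in atrium, 3890 in ventricle and 3728 in aorta. Without both atrium samples 2166 genes were higher and 2343 lower.

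Many genes were present in 1 group and not above background in the other. A set of 410 genes was well above background on all 5 KO arrays and on no WT array, and 365 of them were also above background on all 3 C2C12 arrays. The opposite pattern held for 252 genes, of which 156 were above background on no C2C12 array and 19 on all 3. C2C12 lay nearer to the KO-labelled mean for 1758 of the 2062 higher genes (85.3%) and for 2087 of the 2402 lower genes (86.9%). The matching shares over all tested genes were not computed, so these counts do not measure a likeness to C2C12. Sgcb was not lower in the KO-labelled samples, but its difference did not pass and the place of its probe relative to the deletion is not given. Whether the KO-labelled cultures are beta-sarcoglycan null cardiac progenitors was not tested, and every difference is one between cultures as labelled.

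**Figure D1:**
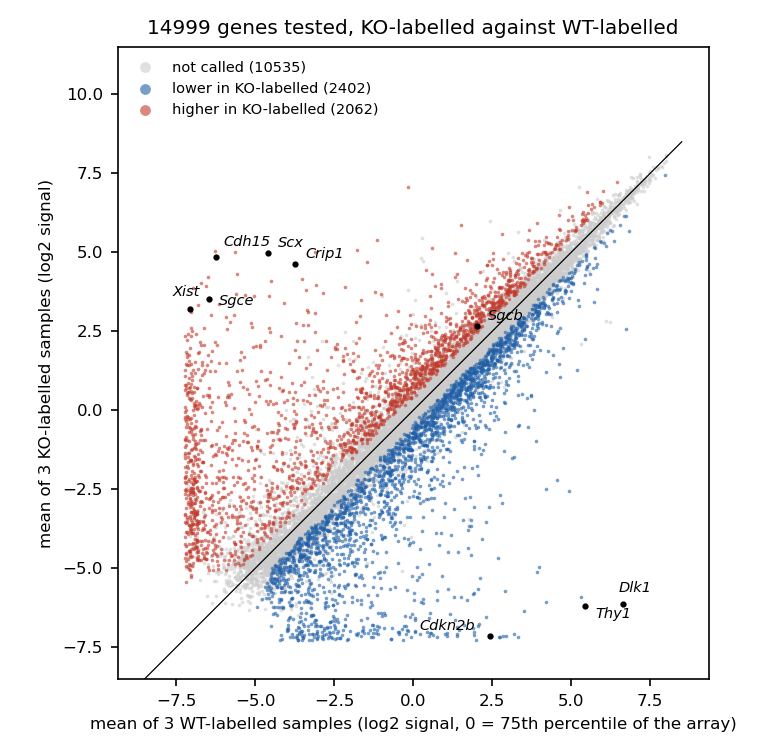
Mean level of each of 14999 genes in the 3 WT-labelled samples (horizontal axis) against the mean in the 3 KO-labelled samples (vertical axis), both in log2 signal with 0 at the 75th percentile of the array. Red points are the 2062 genes higher and blue points the 2402 genes lower in the KO-labelled samples; the column of red points at the left edge and the row of blue points at the bottom are genes near background in 1 group.

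The strongest losses were of genes expressed at high level in every WT-labelled region. Dlk1, a membrane ligand of the Delta family and a product of an imprinted gene, read 6.47, 6.75 and 6.67 in the WT-labelled samples and -6.81, -7.37 and -4.21 in the KO-labelled ones. It was high in all 3 WT-labelled samples and near background in the KO-labelled ones, where 2 of 5 arrays, both from aorta, were well above background (difference -12.76 ± 0.80, adjusted p = 0.000166). Thy1, a surface glycoprotein of stromal cells, read 4.72, 6.06 and 5.50 against -6.46, -7.21 and -4.88. It was above background on no KO array and at least 1293-fold lower (adjusted p = 0.00011).

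Irx1, an Iroquois homeodomain factor, was at least 567-fold lower, at 4.05, 4.22 and 4.34 in the WT-labelled samples and -5.47, -6.40 and -6.35 in the KO-labelled ones (adjusted p = 1.37e-05). Rnf130, a RING-finger protein, was at least 308-fold lower (adjusted p = 1.22e-05). Cdkn2b, the p15 inhibitor of cyclin-dependent kinases 4 and 6, read 2.52, 2.46 and 2.36 in the WT-labelled samples and -6.72, -7.54 and -7.15 in the KO-labelled ones. It was lower by at least 170-fold (adjusted p = 1e-05) and was above background on no C2C12 array. Mtap, the methylthioadenosine phosphorylase gene that neighbours it, was present in all 6 samples, at 3.05, 2.40 and 2.98 against 2.70, 1.98 and 2.04, and did not pass (adjusted p = 0.174). Among 23 genes tested within 5 Mb of Cdkn2b, 4 were higher and 3 lower, with a median difference of 0.22. Klra4 and Klra7, Ly49 receptors of natural killer cells whose sequences are nearly identical, were at least 210-fold and 207-fold lower, and a signal of 1 cannot be told apart from a signal of the other.

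Gains reached a similar size. Cdh15, the M-cadherin of myoblasts, read 4.95, 5.54 and 4.10 in the KO-labelled samples and -6.43, -6.20 and -6.13 in the WT-labelled ones, at least 872-fold higher (adjusted p = 2.54e-05). Bves, a Popeye domain protein of heart and skeletal muscle, read 4.18, 4.16 and 3.76 against -6.64, -7.06 and -6.46, at least 490-fold higher (adjusted p = 1e-05). Scx, the scleraxis transcription factor of tendon, read 5.23, 4.85 and 4.87 against -4.93, -4.32 and -4.55 (difference 9.59 ± 0.21, adjusted p = 1e-05). For Scx a single WT array was above background, and for Cdh15 and Bves none was. Crip1, a small LIM protein, was above background on every array of both groups and was still higher by 8.36 ± 0.21 (adjusted p = 1e-05). It read 4.78, 4.42 and 4.70 in the KO-labelled samples and -3.96, -3.37 and -3.86 in the WT-labelled ones. Syt13, a synaptotagmin, was at least 979-fold higher (adjusted p = 0.000137). Igfbp5, a secreted binder of insulin-like growth factors, was at least 442-fold higher, with KO ventricle at 5.60 above KO atrium at 3.27 and KO aorta at 2.79 (adjusted p = 0.000259).

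The sarcoglycan partners moved in opposite directions. Sgce, the epsilon subunit, was at least 347-fold higher, at 3.44, 3.70 and 3.46 in the KO-labelled samples and not above background on any WT array (adjusted p = 0.00011). Sgca, the alpha subunit of striated muscle, was at least 16.1-fold higher (adjusted p = 0.00042). Sgcd, the delta subunit, was lower by a difference of -1.17 ± 0.18 (adjusted p = 0.00563), a call lost in the slide-blocked fit (adjusted p = 0.208). Sspn, sarcospan, was 1.83, 2.12 and 1.84 against 2.25, 1.81 and 1.65, and the groups overlapped (adjusted p = 0.932). Sfmbt2, a Polycomb gene that hosts a microRNA cluster in an intron, was above background in the WT-labelled samples alone, at -2.02, -3.37 and -3.28, and was lower in the KO-labelled ones by at least 4.19-fold (adjusted p = 0.000977). With normexp background correction its call was lost (adjusted p = 0.173).

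Xist, the RNA that coats the inactive X chromosome of female cells, separated the groups completely. It read 2.76, 3.50 and 3.38 in the KO-labelled samples, -6.84, -7.76 and -6.61 in the WT-labelled ones, and 3.11 and 1.87 in both C2C12 samples. No WT array was above background, and Xist was at least 278-fold higher (adjusted p = 2.7e-05). Tsix, its antisense partner, was higher by at least 3.24-fold (adjusted p = 0.000788), with an adjusted p of 0.0827 in the slide-blocked fit. Of the 9 genes listed for X inactivation and the Y chromosome, 6 were above background on no KO or WT array. The labels give no sex, and its part in the differences was not tested.

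The interferon-stimulated genes were the clearest group that was lower in the KO-labelled samples. Type I interferon signals through a complex that holds Stat2 and Irf9 and binds the interferon-stimulated response element, a repeat of the motif GAAANN, in the promoters of genes that block viral replication. Of 34 genes listed, 33 were on the array and 32 were tested: 28 were lower, 1 was higher and 3 did not pass. The median difference over the 32 was -3.60, or -3.28 with genes at background set to their bound, beside -0.06 over all genes. With the slides as a block 11 of the 32 remained lower and none was higher, against 2.58% of all genes lower in that fit.

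The sequences below are shown because the motif and the direction of change coincide in these promoters. They were read from the RefSeq promoter windows of build GRCm38.p6, run 5′ to 3′ on the strand of the gene, and carry in capitals each match, on either strand, to GAAA followed by any 2 bases and GAAA again. A match on the opposite strand reads TTTC, any 2 bases and TTTC. In Oas1a the pair of matches overlaps. The stretches lie upstream of the annotated start site, at chr5:120907526-120907575 (minus strand) for Oas1a, chr19:34640755-34640843 (plus) for Ifit1, chr19:34583343-34583446 (plus) for Ifit3, chr5:92349063-92349132 (minus) for Cxcl10, chr12:26456533-26456602 (minus) for Rsad2 and chr11:58199492-58199555 (plus) for Igtp.
Oas1a: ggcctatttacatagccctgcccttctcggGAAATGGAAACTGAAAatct
Ifit1: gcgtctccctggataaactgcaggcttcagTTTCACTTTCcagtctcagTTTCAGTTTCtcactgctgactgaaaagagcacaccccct
Ifit3: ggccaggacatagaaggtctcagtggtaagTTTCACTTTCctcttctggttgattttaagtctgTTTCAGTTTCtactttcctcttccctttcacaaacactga
Cxcl10: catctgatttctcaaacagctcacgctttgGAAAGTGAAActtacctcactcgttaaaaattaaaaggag
Rsad2: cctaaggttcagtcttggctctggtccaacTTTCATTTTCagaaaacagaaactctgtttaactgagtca
Igtp: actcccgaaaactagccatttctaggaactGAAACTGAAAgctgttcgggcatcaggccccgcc

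Of the 28 lower genes 19 had a promoter window, and the motif was in the 250 bases before the start site of 12 of these (63.2%). The same motif was in 978 of all 32851 windows (2.98%) and in 324 of the 10275 tested genes with a window (3.15%). The 12 genes were Bst2, Cxcl10, Gbp2, Gbp3, Ifit1, Ifit3, Igtp, Irgm1, Isg15, Oas1a, Rsad2 and Stat2. The calls of Bst2, Gbp2, Gbp3, Irgm1, Isg15 and Stat2 were lost in the slide-blocked fit (adjusted p = 0.277, 0.0864, 0.207, 0.961, 0.361 and 0.34), where the difference of Irgm1 was -0.09. Bst2 was also lost without KO atrium, KO ventricle or WT aorta (adjusted p = 0.0703, 0.0635 and 0.0564) and without both atrium samples (adjusted p = 0.102). Irgm1 was also lost without any 1 sample but WT ventricle (adjusted p from 0.0742 to 0.143), without both atrium samples, with median scaling, with no filter and with averaged probes (adjusted p from 0.0555 to 0.102). A match describes these letters and does not show that a factor binds there.

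The antiviral effectors described here were lower in every KO-labelled region. Mx2, a dynamin-like GTPase that traps viral particles, read 2.45, 1.47 and 3.03 in the WT-labelled samples and -6.64, -6.08 and -6.84 in the KO-labelled ones, at least 155-fold lower (adjusted p = 6.71e-05). Oas1a, a synthetase that activates RNase L, read 2.14, -0.88 and 1.03 against -6.77, -7.55 and -7.21, at least 52.8-fold lower (adjusted p = 0.000821). In both genes every WT array was above background and no KO array was. Ifit1, which binds foreign RNA, read 0.84, 0.65 and 1.26 against -6.43, -4.76 and -4.54 (difference -6.16 ± 0.52, adjusted p = 0.000549). Ifit3, its partner, read 0.91, 0.17 and 1.37 against -4.77, -4.26 and -3.74 (difference -5.07 ± 0.39, adjusted p = 0.000367). Both were lowest in KO atrium among the KO-labelled samples, and the groups did not overlap. Rsad2 (viperin) was at least 9.04-fold lower (adjusted p = 0.000318), Usp18, which removes Isg15 from its targets, at least 85.2-fold lower (adjusted p = 0.000302), and the immunity-related GTPase Iigp1 at least 45.5-fold lower (adjusted p = 0.000282).

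Regulators of the response were lower as well. Irf9 read 0.36, 0.21 and 1.15 in the WT-labelled samples and -2.29, -2.09 and -2.26 in the KO-labelled ones (difference -2.79 ± 0.27, adjusted p = 0.0009). It stayed above background on every KO array, and the groups did not overlap. Stat2 was lower (difference -1.92 ± 0.37, adjusted p = 0.0124), and lost its call in the slide-blocked fit (adjusted p = 0.34) and without KO atrium (adjusted p = 0.0513). Isg15, a ubiquitin-like modifier, read 3.91, 0.59 and 2.13 against -2.70, -0.56 and -0.49, with WT ventricle only just above the KO-labelled samples. Its call (difference -3.46 ± 0.98, adjusted p = 0.0438) was lost in several settings, among them the omission of any sample but WT ventricle (adjusted p from 0.0613 to 0.121). The exception in the list was Ifi203, a nuclear sensor of the Ifi200 family, which was higher by 3.49 ± 0.70 (adjusted p = 0.0138). Its call was lost in the slide-blocked fit (adjusted p = 0.263), without WT aorta (adjusted p = 0.0534) and when all its probes were averaged (adjusted p = 0.496).

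**Figure D2:**
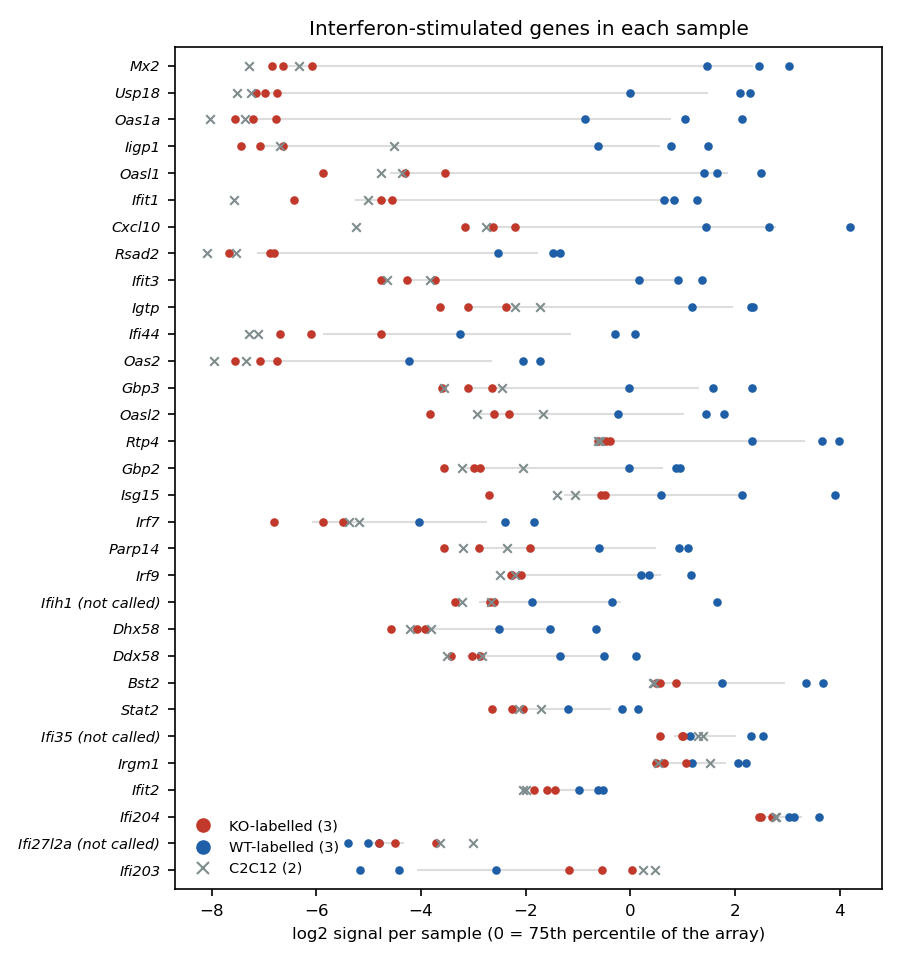
Level of tested interferon-stimulated genes in every sample, in log2 signal with 0 at the 75th percentile of the array (horizontal axis), with 1 gene per row. Red and blue points are the 3 KO-labelled and 3 WT-labelled samples and grey crosses both C2C12 samples; in Mx2 the KO-labelled samples lie between -6.84 and -6.08 and the WT-labelled ones between 1.47 and 3.03.

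Antigen presentation was lower in part. Of 11 tested genes of this list 6 were lower and 1 higher, and 2 and none in the slide-blocked fit. Tap1, the peptide transporter, read -1.08, -1.15 and -0.71 in the WT-labelled samples and was above background on no KO array, at least 15.8-fold lower (adjusted p = 1.69e-05). Psmb9, an immunoproteasome subunit, was at least 32-fold lower (adjusted p = 2.7e-05). B2m, the light chain of MHC class I, was 2.23-fold lower (adjusted p = 0.0043, slide-blocked adjusted p = 0.172), and every KO-labelled value, 4.30, 4.30 and 4.27, lay below every WT-labelled value, 5.74, 5.25 and 5.35. H2-D1, a class I heavy chain, was the member that was higher (difference 1.84 ± 0.29, adjusted p = 0.00611). Its call was lost in the slide-blocked fit (adjusted p = 0.0855) and in the mean of its probes (adjusted p = 0.0879), and class I genes are close paralogues whose probes may share signal.

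Chemokines, interleukins and complement went mostly the same way. Of 12 tested chemokine genes 6 were lower and 2 higher, of 20 interleukin genes 8 were lower and 3 higher, and of 8 complement genes 5 were lower and 2 higher. In the slide-blocked fit 1, 2 and 1 of these were lower and 2, 1 and 0 higher. With synonyms of gene names also matched, 13 chemokine and 9 complement genes were tested, and 6 of each were lower. Cxcl10, an interferon-induced attractant of T cells, read 4.19, 1.44 and 2.65 in the WT-labelled samples and -3.16, -2.63 and -2.20 in the KO-labelled ones (difference -5.42 ± 0.69, adjusted p = 0.00265). Ccl5 read 4.49, 2.74 and 4.46 against -2.08, -0.95 and 0.17 (difference -4.85 ± 0.71, adjusted p = 0.00453). For both genes the highest KO-labelled value was below the lowest WT-labelled one. Il11, a cytokine of stromal cells, was lower by a difference of -3.14 ± 0.22 (adjusted p = 0.000259), and C1ra, a protease of the classical complement pathway, by a difference of -3.31 ± 0.29 (adjusted p = 0.000608). Il1rl1, the receptor of interleukin 33, read 2.64, 6.18 and 5.98 against -2.25, -3.60 and -1.82, with WT atrium lowest of its group (difference -7.49 ± 1.03, adjusted p = 0.00355, slide-blocked adjusted p = 0.1). The other direction was taken by Cxcr4, the receptor of Cxcl12, which was at least 6.12-fold higher (adjusted p = 0.000138), by Cxcl5, at least 6.45-fold higher (adjusted p = 0.000632), and by Lifr, the receptor of leukaemia inhibitory factor, higher by 2.07 ± 0.16 (adjusted p = 0.000362).

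Genes of regulated cell death included neighbours in the necroptosis pathway with opposite changes. Ripk3, the kinase that starts necroptosis, read 3.06, 3.61 and 3.83 in the WT-labelled samples and was above background on no KO array, at least 352-fold lower (adjusted p = 3.72e-05). Mlkl, the pore-forming protein that Ripk3 phosphorylates, read 1.91, 2.06 and 2.09 in the KO-labelled samples and -2.23, -7.11 and -5.80 in the WT-labelled ones (difference 7.07 ± 1.19, adjusted p = 0.00743, slide-blocked adjusted p = 0.141). A single WT array, from atrium, was above background for Mlkl. Bcl2l1, an inhibitor of apoptosis, was lower by a difference of -1.80 ± 0.18 (adjusted p = 0.00106). Over the 18 tested genes of this list 6 were lower (33.3%, against 16.0% of all genes) and 1 was higher. In the slide-blocked fit 2 were lower and none higher, and with normexp 4 were lower.

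Hox genes, whose order along the chromosome mirrors the position along the body axis where they are expressed, changed in both directions. Of 39 listed, 38 were on the array, 12 were above background on no KO or WT array and 20 were tested: 8 were lower and 6 higher. Lower were Hoxa2, Hoxa4, Hoxa5, Hoxa6, Hoxb2, Hoxb6, Hoxb9 and Hoxd4, and higher were Hoxa9, Hoxa10, Hoxa11, Hoxc6, Hoxc9 and Hoxc10. In the Hoxa cluster the called genes with numbers up to 6 were lower and those from 9 on were higher. Hoxb9 did not share that split. The median over the 20 was -0.17 and turned to 0.05 with normexp background correction. In the slide-blocked fit 4 were higher and 4 lower: the calls of Hoxa5, Hoxa6, Hoxa10, Hoxb6, Hoxc6 and Hoxd4 were lost (adjusted p = 0.0806, 0.575, 0.385, 0.532, 0.174 and 0.0588). Hoxd4 was also lost with normexp (adjusted p = 0.0588). Hoxb6 was also lost without KO ventricle, KO aorta, KO atrium or WT ventricle (adjusted p = 0.102, 0.0896, 0.112 and 0.0838), without both atrium samples (adjusted p = 0.0546), and with normexp, median scaling, no filter or the region block (adjusted p from 0.0636 to 0.26).

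The split was steep at both ends. Hoxb2 read -0.04, -0.05 and -0.42 in the WT-labelled samples and was above background on no KO array, at least 27.7-fold lower (adjusted p = 2.73e-05). Hoxa2 read 0.35, 0.59 and -0.09 against -4.99, -5.01 and -5.50 (difference -5.45 ± 0.24, adjusted p = 4.84e-05), with 1 of 5 KO arrays above background. Hoxa4 read -0.87, 0.12 and -0.30 against -2.81, -2.89 and -2.999 (difference -2.55 ± 0.26, adjusted p = 0.00118). For all 3 the C2C12 values were near or below the KO-labelled ones. Hoxa9 read -0.80, -0.44 and -0.58 in the KO-labelled samples and -3.94, -3.75 and -4.30 in the WT-labelled ones (difference 3.39 ± 0.19, adjusted p = 0.000119). Hoxa11 read 1.74, 1.37 and 1.62 and was above background on no WT array, at least 89.2-fold higher (adjusted p = 2.94e-05). Hoxc9 read 2.78, 2.76 and 2.85 against -2.89, -1.23 and -1.28 (difference 4.60 ± 0.46, adjusted p = 0.00101). All 3 were tightly grouped in the KO-labelled samples and close to the C2C12 levels of 2.87 and 2.94 for Hoxc9. Hoxc10 was higher by at least 33.9-fold (adjusted p = 3.84e-05), and Hoxb9 at least 44.3-fold lower (adjusted p = 0.000299). Hoxa6, at -6.50, -5.27 and -5.44 against -4.29, -4.03 and -4.20, was near background. Its difference of -1.56 ± 0.34 (adjusted p = 0.0184) became 0.01 with normexp background correction, and its call was lost without WT ventricle (adjusted p = 0.0619) or WT aorta (adjusted p = 0.0594). Hoxa10 (4.35 ± 1.23, adjusted p = 0.0431) was lost without KO ventricle, KO aorta, KO atrium or WT aorta (adjusted p from 0.0596 to 0.119). Its call was also lost with no filter (adjusted p = 0.0686) and with the region block (adjusted p = 0.0547).

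**Figure D3:**
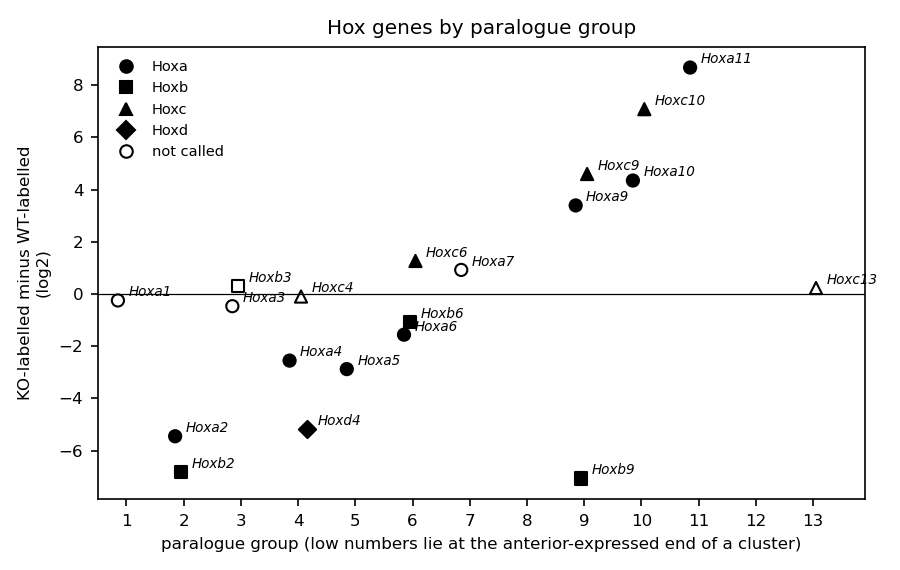
KO minus WT difference on the log2 scale (vertical axis) of the 20 tested Hox genes against the number of the gene in its cluster (horizontal axis). Filled points passed the test and open ones did not; all called genes numbered 2 to 5 lie below 0 and all called genes numbered 9 to 11 above it, up to Hoxa11 at 8.67, except Hoxb9 at -7.07.

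Other patterning factors were also exchanged. Of 42 listed, 33 were tested, 12 were lower and 6 higher, with a median of -0.54, and 7 and 2 in the slide-blocked fit. The share lower was 36.4%, against 16.0% of all genes, and the share higher 18.2%, against 13.7%. Emx2, a homeodomain factor of the urogenital system and forebrain, read -0.89, 0.23 and 0.08 in the WT-labelled samples and was at least 27.2-fold lower (adjusted p = 9.29e-05). Osr1, a zinc-finger factor of intermediate and cardiac mesoderm, read 1.07, 1.99 and 1.75 against -2.24, -1.32 and -1.85 (difference -3.41 ± 0.33, adjusted p = 0.000942). Twist1, a bHLH factor that holds mesenchyme undifferentiated, read 1.80, 1.77 and 1.77 against -0.69, -0.68 and -0.34 (difference -2.35 ± 0.15, adjusted p = 0.000174). In all 3 genes the KO-labelled samples lay below every WT-labelled one. Dlx1 and Dlx2, a linked pair of distal-less genes, were lower by differences of -3.02 ± 0.22 and -2.93 ± 0.34 (adjusted p = 0.000282 and 0.00178). Nr2f2, the COUP-TFII receptor of atrial and venous cells, was lower by a difference of -2.37 ± 0.21 (adjusted p = 0.000635). Zic1, a zinc-finger factor of the dorsal neural tube and somites, read 0.79, 0.86 and 0.51 in the KO-labelled samples and was at least 49.3-fold higher (adjusted p = 4.66e-05). Lhx2, a LIM homeodomain factor, was at least 36.8-fold higher (adjusted p = 0.00011). No WT array was above background for Zic1 or Lhx2.

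Markers of skeletal muscle moved with these differences. Of 15 markers on the array 12 were tested, 10 were higher and none lower, and 5 stayed higher in the slide-blocked fit. Their summed signal, in units of the 75th percentile, was 112.8, 221.7 and 52.6 in the KO-labelled samples, 0.664, 2.87 and 1.36 in the WT-labelled ones, and 361.2 and 155.2 in C2C12. In the WT-labelled samples 8 of the 15 were above background on no array, and in the KO-labelled ones 1, Pax7, was. Whether more muscle-like cells or more RNA per cell gave these values cannot be told apart in bulk RNA, and their part in the results of other lists was not tested. Of 11 endothelial markers 9 were above background on no KO array and 9 on no WT array. Both tested ones, Erg and Egfl7, were lower, and both calls were lost in the slide-blocked fit (adjusted p = 0.0903 and 0.372). Erg was also lost with normexp (adjusted p = 0.25). Egfl7 was also lost without KO atrium, KO ventricle, WT aorta or WT ventricle (adjusted p from 0.0532 to 0.0737). The summed signal of epicardial and mesothelial markers was 2.88, 6.70 and 7.44 in the KO-labelled samples and 10.3, 99.7 and 80.1 in the WT-labelled ones. Such a sum gives most weight to the brightest members of a list. Of the 5 tested markers of this list 1 was higher and 1 lower, with a median difference of -0.04, and none was called in the slide-blocked fit. The summed signal of smooth muscle markers was 291.8, 214.6 and 144.3 against 30.6, 163.5 and 97.0, with KO aorta below WT ventricle. Markers of cartilage, bone and tendon summed to 45.9, 38.8 and 39.9 against 11.47, 13.4 and 12.8. This list includes Scx, described above. Of its 6 tested members 2 were higher and 1 lower, with a median difference of 0.03, so the sums do not describe the list as a whole. Of 7 tested fibroblast markers 4 were lower and 2 higher, with a median difference of -3.98. In the slide-blocked fit 1 was lower and none higher. The summed signals of fibroblast markers, 191.8, 219.7 and 195.1 against 139.4, 224.8 and 168.3, overlapped. Of 8 pericyte and mesoangioblast markers, 4 were above background on no KO array, among them Abcc9, Kcnj8 and Alpl, while Pdgfrb, Cspg4, Angpt1 and Anpep were above it on every KO array. Likewise 4 of the 8 were above background on no WT array, and 3 on every WT array. Their summed signal was 20.95, 19.11 and 25.61 against 8.105, 10.94 and 9.353. Among 4 tested ones 3 were higher and none lower, and 2 stayed higher in the slide-blocked fit.

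Excitation-contraction coupling links depolarisation of the muscle membrane to calcium release from the sarcoplasmic reticulum. Of 21 listed genes 17 were tested, 10 were higher and 1 lower. The median difference was 4.26, or 2.62 with bounds, beside -0.06 over all genes, and 5 were higher in the slide-blocked fit against 3.51% of all genes. Cacng1, the gamma subunit of the skeletal calcium channel, read 2.49, 3.12 and 2.23 in the KO-labelled samples and was above background on no WT array, at least 183-fold higher (adjusted p = 3.42e-05). Jph1 and Jph2, junctophilins that tether the membrane to the reticulum, read 0.44, 0.72 and -0.07 and 2.16, 2.15 and 1.31. Jph1 was higher by at least 38.6-fold (adjusted p = 6.73e-05), and Jph2 differed by 8.22 ± 0.50 (adjusted p = 0.000142) with 1 of 3 WT arrays above background. Cacna2d1, the alpha2-delta subunit, was higher by at least 13.6-fold (adjusted p = 1.01e-05), and the release channel Ryr3 at least 5.52-fold higher (adjusted p = 0.000583). The probe used for Ryr1, the adult release channel, read -1.41, -1.68 and -1.60 against -0.79, -0.81 and -1.13 (difference -0.65 ± 0.16, adjusted p = 0.0266), and its call was lost in the slide-blocked fit (adjusted p = 0.787) and without KO ventricle, KO aorta, KO atrium or WT ventricle (adjusted p = 0.0821, 0.0953, 0.0577 and 0.0845). It was also lost with normexp, median scaling, no filter or the region block (adjusted p = 0.189, 0.0793, 0.0935 and 0.0539) and without both atrium samples (adjusted p = 0.0528). The mean of all probes of Ryr1 turned the difference to 2.12 (adjusted p = 0.0316), so its direction depends on the probe. The calcium store proteins were highest in KO ventricle. Casq2, a calsequestrin, read -1.69, 1.11 and -3.33 against -6.94, -5.18 and -5.97, and its call (adjusted p = 0.0255) was lost in the slide-blocked fit (adjusted p = 0.566) and without KO atrium or any 1 WT-labelled sample (adjusted p from 0.0516 to 0.0756).

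At the neuromuscular junction, acetylcholine receptors are clustered beneath the motor nerve by agrin, Musk and rapsyn. Of 14 listed genes 12 were tested, 7 were higher and none lower, and 3 stayed higher with the slides as a block. The median difference was 3.11, or 2.67 with bounds. Stretches upstream of a pair of receptor subunits are shown because they carry CAGCTG, an E-box of the kind bound by the MyoD family, here in capitals and identical on both strands. They lie at chr2:73580347-73580460 (minus strand) for Chrna1 and chr1:87205626-87205714 (plus) for Chrng, in RefSeq's GRCm38.p6.
Chrna1: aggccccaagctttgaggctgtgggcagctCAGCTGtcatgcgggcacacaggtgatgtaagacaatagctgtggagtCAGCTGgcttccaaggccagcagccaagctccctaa
Chrng: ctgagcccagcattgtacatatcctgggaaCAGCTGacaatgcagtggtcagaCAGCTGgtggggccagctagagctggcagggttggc

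CAGCTG was within 250 bases before the start site of 3 of the 5 higher genes with a promoter window (Chrna1, Chrng and Musk, 60.0%), of 13.0% of all windows and of 14.1% of tested genes with a window. Chrna1, the alpha subunit, read 5.34, 5.73 and 3.93 in the KO-labelled samples and -3.95, -6.20 and -6.77 in the WT-labelled ones (difference 10.64 ± 0.84, adjusted p = 0.000401). Chrng, the gamma subunit of fetal receptors, read -0.39, 2.22 and -2.40 and was higher by at least 26.3-fold (adjusted p = 0.00641), with an adjusted p of 0.254 in the slide-blocked fit. Both subunits were highest in KO ventricle and lowest in KO aorta among the KO-labelled samples. Musk, the receptor kinase, was higher by at least 9.42-fold (adjusted p = 0.00015), and Rapsn, rapsyn, at least 63.2-fold higher (adjusted p = 6.97e-05). Chrne, the subunit that replaces the gamma subunit after birth, was -3.06, -3.09 and -3.29 against -3.52, -3.20 and -3.38 and did not pass (adjusted p = 0.315). Agrn, agrin, was 2.89, 3.14 and 3.12 against 4.04, 3.004 and 3.31, and the groups overlapped (adjusted p = 0.331).

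Of 16 tested genes of myoblast fusion 7 were higher and 1 was lower, and the slide-blocked fit kept 1. Jam2, an adhesion molecule needed for fusion in fish, read 2.895, 2.79 and 2.66 against -4.19, -6.49 and -6.72 (difference 8.58 ± 0.67, adjusted p = 0.000388). Itga7, the laminin receptor of muscle, read 2.06, 2.78 and 1.53 against -0.58, -0.26 and -0.24 (difference 2.49 ± 0.33, adjusted p = 0.00297, slide-blocked adjusted p = 0.248). The fusogen Mymk, myomaker, did not pass (adjusted p = 0.205): KO ventricle stood at 0.80, with KO atrium at -1.40 and KO aorta at -2.48 near the WT-labelled values of -2.49, -2.40 and -2.71.

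More Wnt signalling components were higher than lower. Of 33 tested genes 10 were higher (30.3%, against 13.7% of all genes) and 5 lower (15.2%, against 16.0%), so the share lower was near that of all genes. Lef1 and Tcf7, the DNA-binding partners of beta-catenin, were above background on all KO arrays and no WT array. Lef1 read 0.49, 0.51 and 0.26 and was higher by at least 40.1-fold (adjusted p = 9.29e-05), and Tcf7 read 0.66, 0.17 and 0.85 and was at least 44.2-fold higher (adjusted p = 5.83e-05). Fzd6, a Wnt receptor, was at least 72.6-fold higher (adjusted p = 4.98e-05). Sfrp1, a secreted Wnt inhibitor, went the other way, with -0.25, -0.32 and -0.46 in the WT-labelled samples and no KO array above background, at least 24.5-fold lower (adjusted p = 0.000184). Wnt10a, a ligand, read 4.04, 4.03 and 4.23 against -2.14, -4.60 and -6.75 (difference 8.60 ± 1.09, adjusted p = 0.00255, slide-blocked adjusted p = 0.0729). Wnt5a, a ligand of the non-canonical branch, was lower by at least 3.2-fold (adjusted p = 0.00109), and lost its call with normexp background correction (adjusted p = 0.248). Axin2, a common readout of beta-catenin activity, was -3.83, -4.65 and -5.70 against -4.33, -3.42 and -4.35, and the groups overlapped (adjusted p = 0.36).

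Notch genes changed in both directions. Of 17 tested Notch genes 6 were higher (35.3%, against 13.7% of all genes) and 4 lower (23.5%, against 16.0%). Among 4 tested targets 3 were higher, of which 1 stayed so in the slide-blocked fit. Of 8 listed targets 3 were above background on no KO or WT array. Heyl read 1.44, 3.17 and 0.00 in the KO-labelled samples and was above background on no WT array, at least 87.0-fold higher (adjusted p = 0.000788). Hey1 read 0.29, 0.93 and -0.21 against -2.65, -2.94 and -2.90 (difference 3.16 ± 0.30, adjusted p = 0.000863, slide-blocked adjusted p = 0.174). Both were highest in KO ventricle. Jag2, a ligand, was at least 45.0-fold higher (adjusted p = 3.92e-05). Hes1 was 0.08, 0.10 and 0.37 against -0.15, -0.65 and 0.03 and did not pass (adjusted p = 0.179), nor did Jag1 (adjusted p = 0.174).

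In the insulin-like growth factor list, 3 of 15 tested genes were higher and 7 lower. Igf2bp1, an RNA-binding protein of embryonic cells, read 3.12, 1.35 and 1.304 in the WT-labelled samples and was at least 118-fold lower (adjusted p = 0.000138). The 3 that were higher were binding proteins: beside Igfbp5, Igfbp2 was higher by at least 244-fold (adjusted p = 1e-05) and Igfbp3 at least 4.39-fold higher (adjusted p = 0.00166). Igf1 read -1.15, 0.86 and 0.20 against -5.46, -4.77 and -5.46 (difference -5.20 ± 0.53, adjusted p = 0.0011, slide-blocked adjusted p = 0.1). Igf2 was not called (adjusted p = 0.0999), and its KO-labelled values of 1.07, 3.96 and 0.01 overlapped WT atrium at 0.47, while WT ventricle and WT aorta were at -6.49 and -3.93.

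Among 44 tested genes of TGF-beta and BMP signalling 10 were higher (22.7%, against 13.7% of all genes) and 14 lower (31.8%, against 16.0%). Antagonists were lower more than higher, 6 against 3 of 14. Grem1, a secreted protein that binds BMPs outside the cell, was lower by a difference of -3.21 ± 0.22 (adjusted p = 0.000251). It stayed expressed, at 0.38, 0.13 and 0.64 in the KO-labelled samples against 3.84, 3.23 and 3.72. Id4, a BMP target that inhibits bHLH factors, read 2.67, 1.93 and 1.70 in the WT-labelled samples and was at least 134-fold lower (adjusted p = 4.08e-05). Of the ligands, Inhbb, the activin beta B chain, was higher by at least 65.0-fold (adjusted p = 5.07e-05), and Bmp4 was higher by 3.95 ± 0.41 (adjusted p = 0.00115). Gdf15, a stress-induced ligand, read 1.504, 2.42 and 1.67 against -6.85, -4.65 and -4.87 (difference 7.32 ± 0.62, adjusted p = 0.00056), with 1 WT array above background.

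Receptor tyrosine kinase genes were split almost evenly, with 11 higher and 11 lower of 47 tested. Each share was 23.4%, against 13.7% of all genes higher and 16.0% lower. With synonyms of gene names also matched, 11 were higher and 12 lower of 48 tested. Pdgfd and Pdgfb, ligands of the beta receptor of platelet-derived growth factor, were at least 24.8-fold and 12.2-fold higher (adjusted p = 0.00016 and 0.00129). Their receptor Pdgfrb was 3.64, 3.63 and 3.98 against 2.14, 2.94 and 2.26 (difference 1.302 ± 0.25, adjusted p = 0.0122, slide-blocked adjusted p = 0.246). Pdgfra, the alpha receptor of fibroblast-like cells, was lower, at -2.70, -2.28 and -1.20 against 1.82, 2.42 and 1.91 (difference -4.11 ± 0.41, adjusted p = 0.00102, slide-blocked adjusted p = 0.0587). Both receptors separated the groups completely, in opposite directions. With the slides as a block, the counts higher and lower were 3 and 2 for Wnt, 2 and 1 for Notch, 3 and 1 for insulin-like growth factors, 4 and 3 for TGF-beta and BMP, and 2 and 2 for receptor tyrosine kinases. Over all genes that fit called 3.51% higher and 2.58% lower, and the counts for receptor tyrosine kinases lie near these shares. For Wnt, normexp background correction left 7 higher and 1 lower.

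Several guidance and adhesion genes were above background in the KO-labelled samples alone. Of 26 tested guidance genes 9 were higher and 3 lower. Sema3e, a secreted semaphorin, read 1.37, 2.36 and 1.75 and was higher by at least 106-fold (adjusted p = 5.37e-05), and Robo1, a receptor of Slit proteins, read 0.24, 0.21 and 0.08 and was at least 33.9-fold higher (adjusted p = 0.000232). Neither was above background on a WT array. Among 15 cadherin and adhesion genes 5 were higher and 3 lower. Cdh10, Cadm1 and Cd24a were at least 45.8-fold, 30.6-fold and 81.3-fold higher (adjusted p = 9.35e-05, 0.00011 and 0.000234). Of 16 integrin subunits 5 were higher and 3 lower, and Itga11, the alpha chain of a collagen receptor, was at least 18.2-fold higher (adjusted p = 0.000199). The share of integrin subunits lower, 18.8%, was near the 16.0% of all genes. In the slide-blocked fit the counts higher and lower were 3 and 0 for guidance, 4 and 0 for adhesion, and 1 and 0 for integrins.

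Matrix genes changed in both directions within families. Of 90 tested matrix genes 30 were higher and 16 lower, with a median difference of 0.57, and 10 and 2 in the slide-blocked fit. The share higher was 33.3%, against 13.7% of all genes. The share lower, 17.8%, was near the 16.0% of all genes. Among laminins, Lama2, the chain of muscle basement membrane, read -0.01, 0.69 and -0.12 and was at least 34.1-fold higher (adjusted p = 4.83e-05). Lama5 was higher by at least 85.5-fold (adjusted p = 6.38e-05) and Lamb3 at least 12.6-fold higher (adjusted p = 9.53e-05). Lama4, the chain of vessel basement membrane, read 0.43, 0.99 and 1.16 in the WT-labelled samples and -2.51, -2.33 and -2.10 in the KO-labelled ones (difference -3.18 ± 0.23, adjusted p = 0.0003). Thus 3 chains were higher and Lama4 lower, with no overlap of the groups for any of them. Collagen IV followed Lama4: Col4a1 was lower by a difference of -3.80 ± 0.54 (adjusted p = 0.00391, slide-blocked adjusted p = 0.0928) and Col4a2 by a difference of -2.80 ± 0.32 (adjusted p = 0.00166, slide-blocked adjusted p = 0.0508). Col5a3, a fibril-regulating collagen, read 3.11, 3.32 and 3.09 against -3.72, -2.93 and -3.43 (difference 6.53 ± 0.23, adjusted p = 2.7e-05). Adamts2, which trims the ends of procollagen, was at least 241-fold higher (adjusted p = 1.75e-05), Smoc2, a calcium-binding matrix protein, at least 82.4-fold higher (adjusted p = 0.000175), and Gpc4, a glypican, at least 117-fold lower (adjusted p = 2.7e-05).

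Cholesterol synthesis was higher by small and even steps. Of 17 tested genes 9 were higher and none lower, with a median difference of 1.08, and 5 were higher in the slide-blocked fit. Fdps, which makes farnesyl pyrophosphate, read 4.82, 4.50 and 4.49 in the KO-labelled samples and 2.18, 2.67 and 2.17 in the WT-labelled ones (difference 2.26 ± 0.20, adjusted p = 0.000611). Dhcr7, the last reductase of the pathway, read 2.90, 2.41 and 2.90 against 1.08, 1.47 and 1.52 (difference 1.38 ± 0.21, adjusted p = 0.00497). Srebf1, a transcription factor of lipid synthesis, read 3.93, 4.15 and 4.30 against 3.07, 3.0005 and 3.03 (difference 1.10 ± 0.15, adjusted p = 0.00303). In each gene every KO-labelled value was above every WT-labelled one. Both C2C12 samples differed in this pathway as well, with Fdps at 3.74 on slides 1 and 3 and 5.67 on slide 2.

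Other energy genes were mixed. Of 24 tested genes of glycolysis and hypoxia 8 were higher (33.3%, against 13.7% of all genes) and 4 lower. The share lower, 16.7%, was near the 16.0% of all genes. Egln3, a prolyl hydroxylase of hypoxia-inducible factor, was higher by at least 68.7-fold (adjusted p = 6.13e-05), and Slc2a3, a glucose transporter, at least 18.0-fold higher (adjusted p = 0.000199). Adm, adrenomedullin, was lower, at -4.14, -3.38 and -4.10 against 0.49, 1.28 and 0.88 (difference -4.76 ± 0.30, adjusted p = 0.000159). Ppargc1a, a coactivator of mitochondrial genes, read -2.15, -1.81 and -2.22 in the WT-labelled samples and was above background on 1 of 5 KO arrays (difference -3.43 ± 0.18, adjusted p = 8.27e-05). Pparg, the regulator of adipocyte genes, was higher, at 1.41, 1.06 and 1.90 against -3.16, -3.12 and -3.47 (difference 4.71 ± 0.25, adjusted p = 8.93e-05).

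Housekeeping programmes differed at few genes. Among 34 tested subunits of the respiratory chain 2 were higher and none lower, with a median difference of -0.01. Cox7a1, the subunit isoform of heart and skeletal muscle, was 1 of these, at -1.56, -1.54 and -1.57 against -3.53, -2.998 and -3.04 (difference 1.63 ± 0.18, adjusted p = 0.00154, slide-blocked adjusted p = 0.0543). Of 67 tested cell cycle genes 5 were higher and 5 lower, with a median of 0.03. The share called higher was 5.88% for the respiratory chain and 7.46% for the cell cycle, against 13.7% over all genes. E2f2, a transcription factor of S phase, was the largest gain, from -1.22, -0.67 and -0.73 to 2.08, 2.49 and 2.01 (difference 3.07 ± 0.22, adjusted p = 0.000282). Ccnd2 and Ccnd1, D-type cyclins, were lower by differences of -6.70 ± 1.28 and -2.08 ± 0.37 (adjusted p = 0.0118 and 0.00909, slide-blocked adjusted p = 0.218 and 0.112), and Ccnd2 varied widely among KO-labelled samples, from 0.49 in atrium to -4.79 in aorta.

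**Figure D4:**
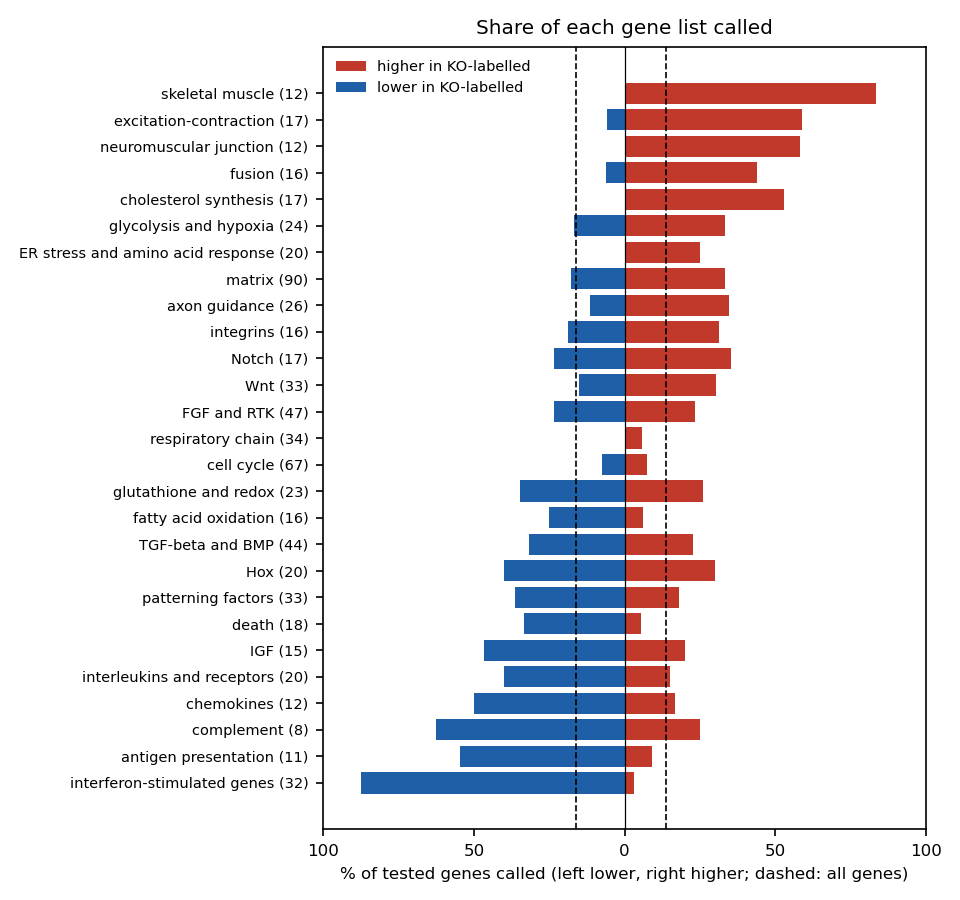
Share of the tested genes of each list called higher (red, to the right) and lower (blue, to the left) in the KO-labelled samples, in percent (horizontal axis), with the shares over all 14999 genes, 13.7% and 16.0%, as dashed lines. Interferon-stimulated genes reach 87.5% lower, the skeletal muscle, excitation-contraction, neuromuscular junction and fusion lists lie to the right, and the respiratory chain and cell cycle lists stay close to 0.

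Differences were uneven along the genome. Gene positions follow the array design, in build mm8, for 14871 genes, grouped in 174 windows of 15 Mb with at least 20 tested genes each. On chromosome 17, 33.7% of 728 genes were lower and 7.01% higher, and the median difference was -0.38 in atrium, -0.42 in ventricle and -0.34 in aorta. Of its 6 windows the 3 up to 45 Mb had medians of -0.42, -0.52 and -0.45, and the last, from 75 Mb, of -0.33. Between 45 and 75 Mb the medians were -0.11 and -0.03, close to the -0.06 of all genes. On chromosome 16, 24.9% of 462 genes were higher and 8.23% lower, with medians of 0.30, 0.24 and 0.33 in the 3 regions and all 6 windows above 0. Windows on 1 side of 0 were not particular to these chromosomes: every window was below 0 on chromosomes 2, 5, 8, 17, 18 and 19, and above 0 on chromosomes 9, 15 and 16. Chromosome 15 had the same share of higher genes, 24.9% of 651, but its median was 0.48 in atrium and 0.32 in aorta and 0.02 in ventricle. Against C2C12, the KO-labelled medians of chromosomes 15, 16 and 17 were 0.03, -0.03 and -0.09, and the WT-labelled ones -0.27, -0.29 and 0.25.

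Shorter segments reached larger values. On chromosome 4 between 120 and 135 Mb, 102 of 188 genes were higher and 12 lower, with a median of 0.86, and the medians by region were 0.93, 0.77 and 0.91. Against C2C12 the KO-labelled median of this segment was 0.56 and the WT-labelled one -0.22. The end of chromosome 2, from 180 Mb, had 24 of 39 genes lower and 1 higher, with a median of -0.95 and regional medians of -0.87, -0.94 and -0.84. Both segments were shifted to a like extent in all 3 regions. On chromosome 4 between 90 and 105 Mb, by contrast, the median was -0.06 in atrium and -1.18 and -1.23 in ventricle and aorta, and from 150 Mb it was 0.17 in atrium and 1.10 in ventricle and aorta. Between 75 and 90 Mb of chromosome 9, 23 of 66 genes were higher and 3 lower, and between 45 and 60 Mb of chromosome 15, 21 of 50 were higher and none lower. In all, 4 of the 174 windows had a median above 0.5 and 3 a median below -0.5. DNA was not measured here, and the number of chromosomes or of copies of a segment was not tested. Neighbouring genes are not independent, and no test was made of these shares.

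**Figure D5:**
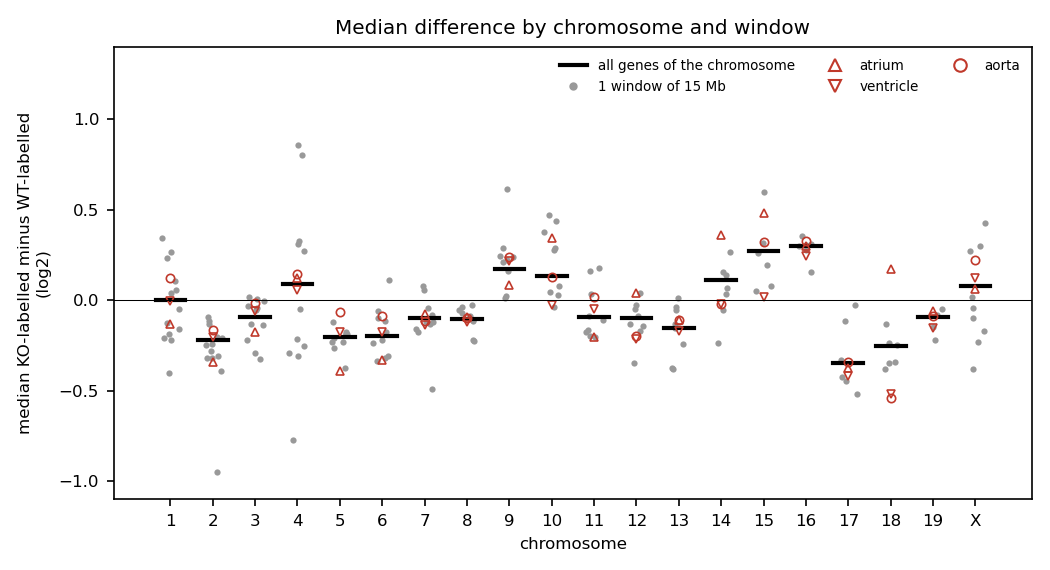
Median KO minus WT difference on the log2 scale (vertical axis) of the genes of each window of 15 Mb (grey points) by chromosome (horizontal axis), with black bars for the median of all genes of a chromosome and red symbols for that median in atrium, ventricle and aorta. The median of chromosome 17 is the lowest of the chromosomes drawn and that of chromosome 16 the highest, and the highest and lowest windows are 0.86 on chromosome 4 and -0.95 at the end of chromosome 2.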

How the data were processed

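RNA of 8 arrays (5 KO-labelled, 3 WT-labelled) and 3 C2C12 arrays was labelled with Cy3 and hybridised to 1-colour Agilent mouse arrays, per the labels' protocols. The deposited intensity of each spot is Agilent's processed signal, background-subtracted with Agilent's software, per the file headers (the submitters' processing notes name Feature Extraction 9.5.3.1). The authors' series table holds log2 values per the deposited files, equal to log2 of the processed signal within 0.01 for 99.7 to 99.8% of probes, uncentred, with column medians of 5.44 to 5.77; it was used as an alternative.

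Control and outlier spots were left out, spots of a probe averaged, and log2 signal was scaled to each array's 75th percentile (41121 probes, 27561 names, the name taken by accession for 24469 probes). Each gene was represented by 1 probe. Genes well above background on at least 3 arrays were tested with limma 3.58.1 in R 4.3.3, Benjamini-Hochberg adjusted at 0.05, after averaging the near-identical arrays. Bounds set the dim group at the lowest signal well above background on each array. The fits were tested on simulated data. Alternatives were background correction (normexp, offset 50), scaling, filter, probe averaging, every array its own sample, region or slide as a block, an intensity trend, and the omission of each sample. The authors' table and the omission of both atrium samples were added after seeing the data.

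Genes were named by a rule: the 15 largest called differences in each direction, up to 4 called genes per direction of each list subgroup, all members of the Ink4, X and Y, sarcoglycan, microRNA host and marker lists, the most stable calls and genes within 10 Mb of Sgcb. Only some of these, and genes that did not pass, are described, and some genes are not reported here. The comparison and the lists were chosen with earlier results of these data known. List counts match members by their listed name. With synonyms also matched, 35 Wnt genes were tested and 11 were higher, and 25 glycolysis and hypoxia genes were tested and 9 were higher. The numbers tested became 45 for TGF-beta and BMP, 92 for matrix and 18 for cholesterol synthesis, with the same counts called. Promoter sequences and names are RefSeq's, build GRCm38.p6. The region block pairs samples by heart region, since the labels share no replicate numbers.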

Additional observations from a re-analysis of the deposited data

How the results depend on the processing

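The counts of 2062 higher and 2402 lower genes stayed within 1.5 times under all scalings, no filter, the region block, averaged probes, an intensity trend, the authors' deposited table and the omission of both atrium samples. They became 1347 higher with a filter on all 8 arrays, 1240 lower with normexp, and 3632 lower with every array as its own sample. The slide block left 527 higher and 387 lower, and the region block, the pairing by region, 1745 and 1903. Leaving out 1 sample gave 1305 to 2901 higher and 1422 to 3237 lower genes; the lowest were without KO atrium and the highest without WT atrium. Median scaling moved the median of all genes from -0.06 to 0.05. Among called genes of the lists, normexp turned C1qb to 0.0003, Fzd5 to 0.15, Hcn4 to 0.05, Hoxa6 to 0.0066 and Timp4 to 0.26. The slide block turned Cat to 0.16, Hcn4 to 0.36, Timp4 to 0.16 and Wnt2 to -0.0663, averaged probes turned Ror2 to 0.45 and Ryr1 to 2.12, and leaving out 1 sample moved Bglap, which was not called, between -0.78 (without WT atrium) and 0.7689 (without WT ventricle). The cause was not tested. Signal near background limits the size of differences for genes present in 1 group alone.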
